A study of Mus musculus with 23 samples.

Results

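The interferon-stimulated and major histocompatibility complex (MHC) class I genes were described in primary mouse aorta endothelial cells (MAOEC) kept in mouse plasma. The set holds 46 genes listed by symbol, of which 45 were found, each on 1 probe set, among 24704 genes with a single symbol. Ifi44 was not analysed here. Of the 45, 36 belong to the antiviral arm (sensors, transcription factors, effectors and regulators) and 9 to antigen presentation on MHC class I.

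The cells were commercial primary cells, grown to confluence and then kept for 48 h in medium with 10% mouse plasma in place of serum, before total RNA was hybridised to Affymetrix arrays. The plasma donors were ApoE-Stab2-KO (6 arrays), ApoE-Stab1-KO (6 arrays), ApoE-KO (5 arrays) or Wildtype mice (6 arrays). The ApoE-Stab2-KO, ApoE-Stab1-KO and ApoE-KO donors lacked ApoE and had received Western Diet for 8 weeks. The labels name no diet for the Wildtype donors, so donor genotype and diet cannot be told apart in any comparison with Wildtype plasma. The genotype is that of the plasma donor: all cells carry the same label, strain C57BL/6J, and no gene was deleted in them. ApoE is the ligand through which the liver clears lipoprotein remnants, and Stab1 and Stab2 are scavenger receptors of sinusoidal endothelium that remove many ligands from plasma. The study therefore asks what plasma that lacks this clearance does to arterial endothelium. Whether the replicates are separate cultures or plasma donors is not stated, and each p-value is therefore set against a spread between arrays that may be technical. The number of arrays limits the precision.

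Type I interferon binds its receptor and activates receptor-bound kinases. A complex that holds Stat2 and Irf9 then binds the interferon-stimulated response element (ISRE) in the promoters of antiviral genes. Interferon gamma acts on the gamma-activated site (GAS), and induces MHC class I, its peptide transporter Tap1/Tap2 and the immunoproteasome. Class I molecules display peptides from inside the cell to CD8+ T cells. In arterial endothelium both branches are known for their link to vascular inflammation.

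These promoters are shown because they hold a motif: of the 12 members with the smallest p-value between plasma groups, the 5 whose window holds a match are printed, together with B2m, the light chain of every class I molecule. Each is the 250 bases before the start of the gene in RefSeq (GRCm38.p6), read 5′ to 3′ on the strand of the gene. Capitals mark the ISRE-like motif GAAANNGAAA or its reverse complement TTTCNNTTTC, and the GAS-like motif TTCNNNGAA, which is its own reverse complement. In Bst2 the 2 ISRE-like matches and the GAS-like match overlap and form 1 run of capitals.
Rsad2: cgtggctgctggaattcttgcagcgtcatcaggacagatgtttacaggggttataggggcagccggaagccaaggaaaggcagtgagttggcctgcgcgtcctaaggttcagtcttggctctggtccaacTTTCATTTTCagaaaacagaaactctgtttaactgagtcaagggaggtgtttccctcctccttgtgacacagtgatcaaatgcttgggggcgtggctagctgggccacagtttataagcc
Ifit3: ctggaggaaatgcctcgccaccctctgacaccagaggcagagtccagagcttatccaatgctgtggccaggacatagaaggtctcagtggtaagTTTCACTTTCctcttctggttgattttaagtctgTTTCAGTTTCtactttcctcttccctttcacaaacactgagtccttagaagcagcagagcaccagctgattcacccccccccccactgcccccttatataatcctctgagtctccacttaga
Bst2: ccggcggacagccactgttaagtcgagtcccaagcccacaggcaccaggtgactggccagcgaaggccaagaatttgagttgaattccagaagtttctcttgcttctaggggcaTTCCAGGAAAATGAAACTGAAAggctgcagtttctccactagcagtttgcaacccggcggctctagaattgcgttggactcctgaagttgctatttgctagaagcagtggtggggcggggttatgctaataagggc
Eif2ak2: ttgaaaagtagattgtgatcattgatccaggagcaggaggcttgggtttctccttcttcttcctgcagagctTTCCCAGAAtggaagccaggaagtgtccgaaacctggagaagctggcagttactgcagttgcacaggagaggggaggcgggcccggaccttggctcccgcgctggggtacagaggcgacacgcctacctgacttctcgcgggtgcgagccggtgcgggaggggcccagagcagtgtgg
Isg20: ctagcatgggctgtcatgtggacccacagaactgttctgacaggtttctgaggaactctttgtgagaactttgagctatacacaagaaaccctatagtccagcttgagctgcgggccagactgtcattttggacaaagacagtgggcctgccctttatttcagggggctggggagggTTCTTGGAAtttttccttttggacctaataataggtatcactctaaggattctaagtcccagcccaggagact
B2m: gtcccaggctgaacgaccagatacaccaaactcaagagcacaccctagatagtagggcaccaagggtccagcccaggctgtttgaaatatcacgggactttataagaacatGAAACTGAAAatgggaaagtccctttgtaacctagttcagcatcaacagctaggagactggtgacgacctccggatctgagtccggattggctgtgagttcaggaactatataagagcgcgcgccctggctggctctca

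The Rsad2 window lies at chr12:26456453-26456702 on the minus strand and holds 1 ISRE-like match, from 120 to 111 bases before the start. The Ifit3 window (chr19:34583279-34583528, plus strand) holds 2, the nearer from 122 to 113 bases before the start. The Bst2 window is at chr8:71537473-71537722 on the minus strand. Eif2ak2 (chr17:78882573-78882822, minus strand) and Isg20 (chr7:78913174-78913423, plus strand, the first of 3 listed starts) hold 1 GAS-like match each. The B2m window (chr2:122147437-122147686, plus strand) holds 1 ISRE-like match, from 139 to 130 bases before the start. The promoter table matched 34 of the 45 members by symbol. The ISRE-like motif was found in 12 of 27 antiviral members and in 1 of 7 antigen presentation members, against 3.46% of all 27025 symbols with a promoter. The GAS-like motif was found in 6 of 27 and 1 of 7, against 8.13% of all symbols. For Ifi35, Irf9, Oasl1, Ifih1, Cmpk2, H2-D1, H2-K1 and Tap1 these letters are not in the window. A match is a description of the sequence and says nothing of binding in these cells.

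Across the 45 members, 1 gene changed between the 4 plasma groups. This was Rsad2 (viperin), an antiviral enzyme, in the moderated F-test of limma with Benjamini-Hochberg adjustment over all genes (adjusted p = 0.0261), against 0.546% of all genes. At an unadjusted p under 0.05 the F-test took 10 of 36 antiviral members and 0 of 9 antigen presentation members, against 11.9% of all genes. In the 6 pairwise comparisons, 0 members passed limma's adjusted p of 0.05. The share of all genes that passed was 0.53% for ApoE-KO against Wildtype plasma, 0.364% for ApoE-Stab1-KO against Wildtype plasma and 0.178% for ApoE-Stab2-KO against Wildtype plasma. It was 0.00405% for ApoE-Stab1-KO against ApoE-KO plasma, 0.0243% for ApoE-Stab2-KO against ApoE-KO plasma and 0.0486% for ApoE-Stab2-KO against ApoE-Stab1-KO plasma. At an unadjusted p under 0.05, 10 of the 36 antiviral members were counted in ApoE-Stab2-KO against ApoE-Stab1-KO plasma, 7 in ApoE-Stab1-KO against ApoE-KO plasma and 3 to 5 in the other 4 comparisons. The shares of all genes, higher and lower, were 5.2% and 5.78% in the first of these and 2.83% and 2.74% in the second. In the other 4 comparisons 3.94% to 5.74% of all genes were higher and 4.22% to 5.55% lower.

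**Figure D1:**
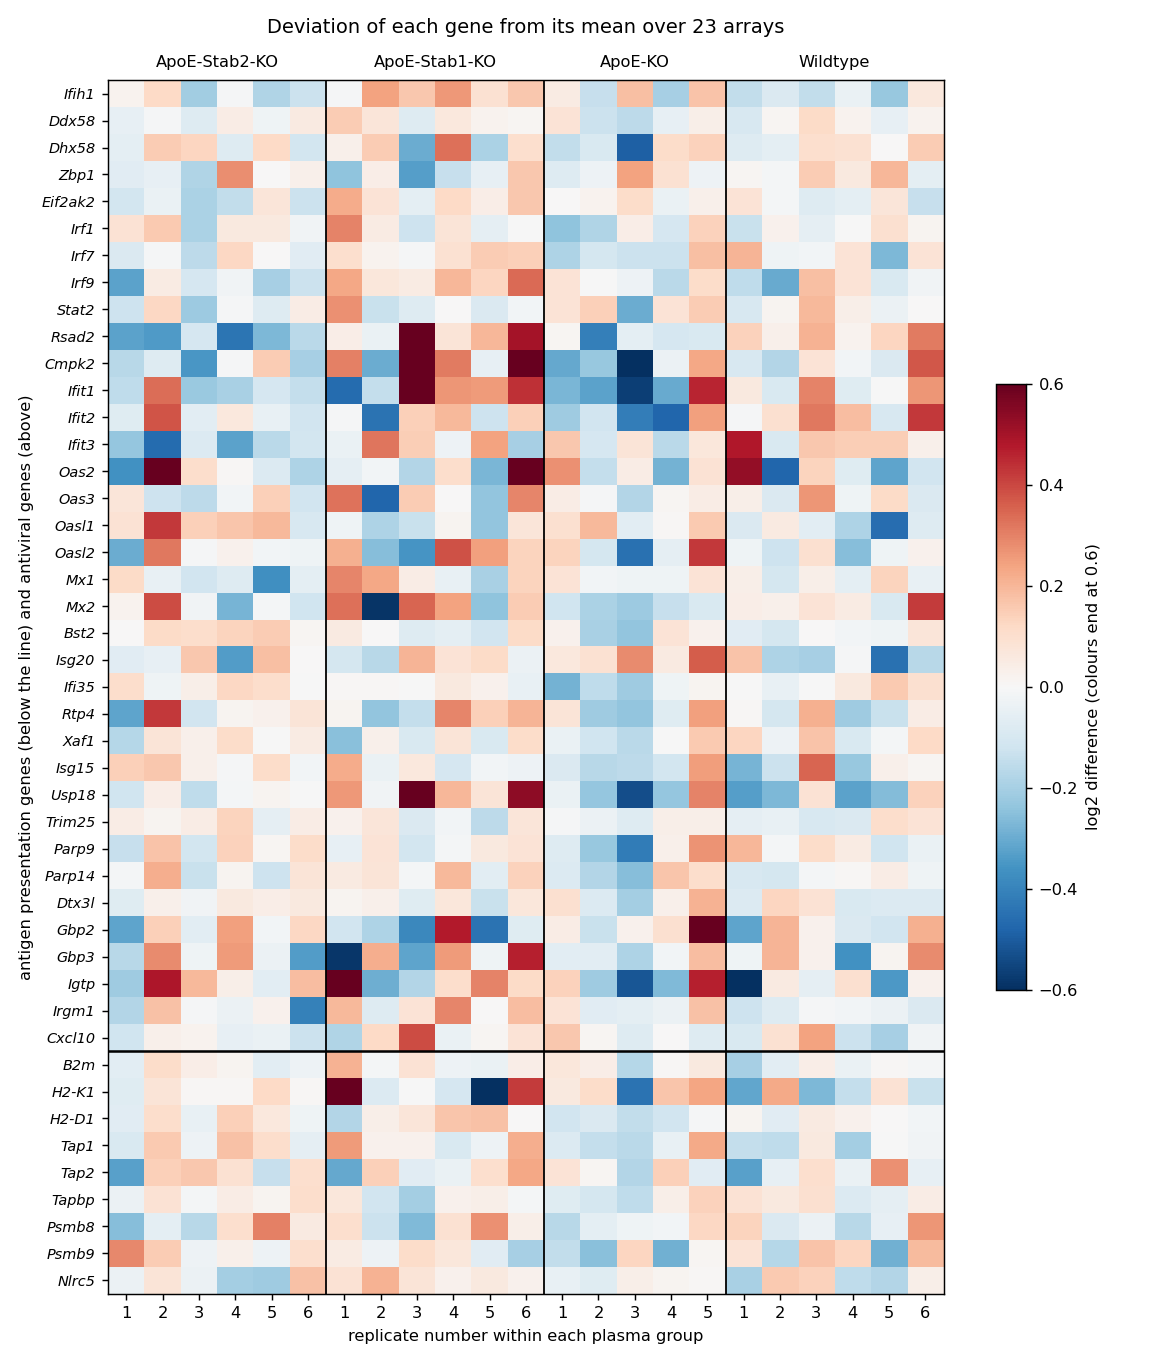
Deviation of each member's log2 value from its mean over all 23 arrays, with arrays in columns by plasma group and genes in rows by role; the colour scale is in log2 units and ends at 0.6 in both directions. Rsad2 is low in the 6 ApoE-Stab2-KO arrays, and ApoE-KO replicate 5 is above the gene's mean for 32 of 36 antiviral members.

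Among the antiviral effectors, Rsad2 had log2 values of 5.89, 6.04 and 6.23 (lowest, median and highest) in the 6 ApoE-Stab2-KO arrays and 6.29, 6.47 and 7.0 in the 6 ApoE-Stab1-KO arrays. In the 5 ApoE-KO arrays it had 6.34, 5.92, 6.27, 6.23 and 6.24. In the 6 Wildtype arrays it had 6.35, 6.47 and 6.64. Every ApoE-Stab2-KO array was below every ApoE-Stab1-KO and every Wildtype array, and every ApoE-KO array was below every Wildtype array, where the nearest arrays had 6.34 and 6.35. The ApoE-Stab2-KO and ApoE-KO arrays overlapped. The means were 6.06 ± 0.13 in ApoE-Stab2-KO plasma, 6.57 ± 0.28 in ApoE-Stab1-KO plasma, 6.20 ± 0.16 in ApoE-KO plasma and 6.47 ± 0.11 in Wildtype plasma (SD; n = 6, 6, 5 and 6). The pairwise difference with the smallest p was that of ApoE-Stab2-KO against ApoE-Stab1-KO plasma, -0.51 ± 0.10 (SE; 95% interval -0.72 to -0.31), with a limma adjusted p of 0.0522 and an unadjusted p of 3.03e-05. ApoE-Stab2-KO against Wildtype plasma gave -0.41 ± 0.10 (adjusted p = 0.119), ApoE-KO against Wildtype plasma -0.27 ± 0.10 (adjusted p = 0.326) and ApoE-Stab1-KO against ApoE-KO plasma 0.37 ± 0.10 (adjusted p = 0.648). The F-test adjusted p of Rsad2 was above 0.05 in limma when 1 of 5 arrays was left out: ApoE-Stab1-KO replicate 6 (0.0513) or ApoE-Stab2-KO replicates 1 (0.0551), 2 (0.0626), 4 (0.0671) or 5 (0.055). The adjusted p of ApoE-Stab2-KO against ApoE-Stab1-KO plasma passed 0.05 without ApoE-Stab1-KO replicate 1 (0.0243), 2 (0.0259) or 4 (0.0445), and did not without any other array of these groups.

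Rsad2 was the only member whose arrays did not overlap between any pair of plasma groups. Groups without overlap, in either direction, were found for 1.98% of all genes in ApoE-KO against Wildtype plasma, 1.15% in ApoE-Stab2-KO against Wildtype plasma and 0.806% in ApoE-Stab2-KO against ApoE-Stab1-KO plasma. In the other 3 comparisons 0 members were without overlap, against 0.854% of all genes (ApoE-Stab1-KO against Wildtype plasma), 0.368% (ApoE-Stab1-KO against ApoE-KO plasma) and 1.33% (ApoE-Stab2-KO against ApoE-KO plasma).

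**Figure D2:**
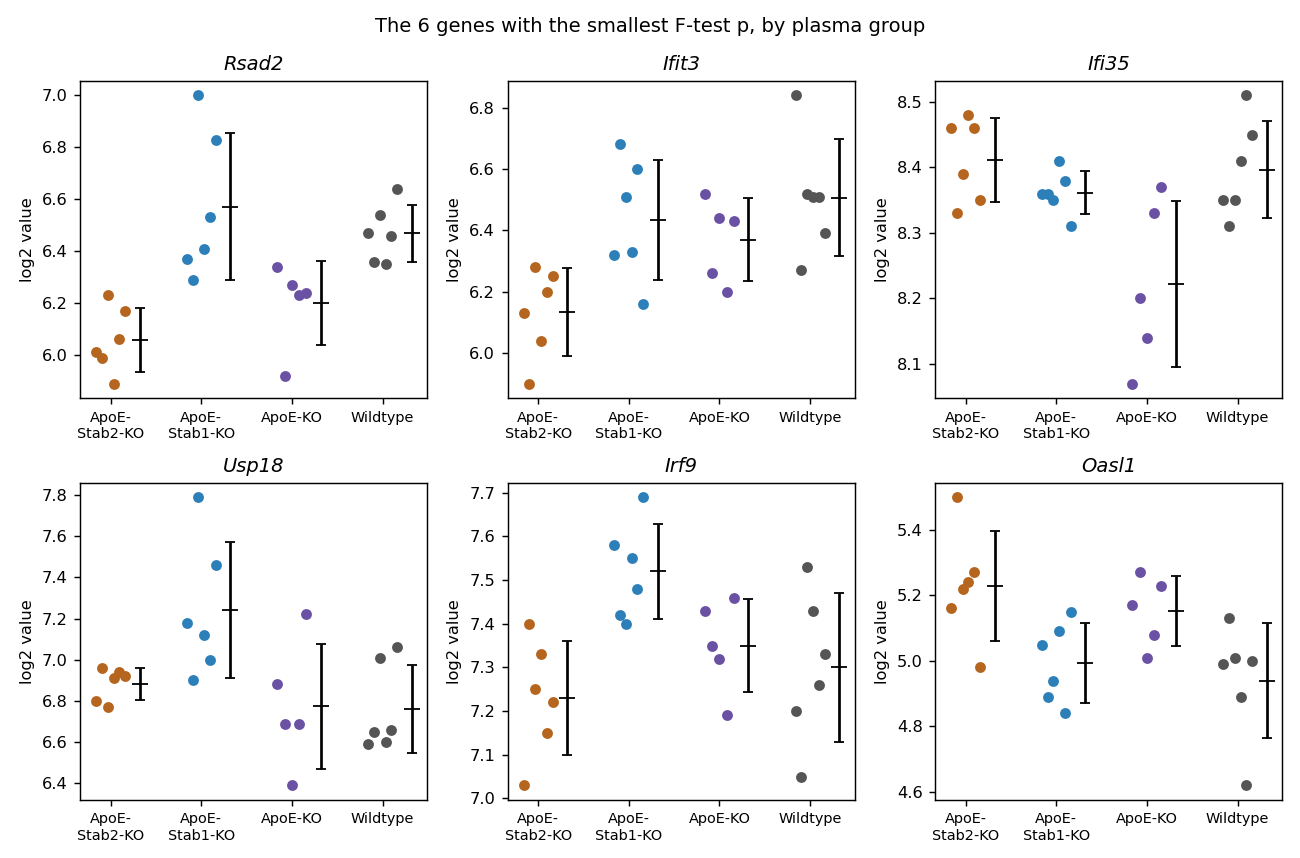
Log2 values of the 6 members with the smallest F-test p, 1 point per array in each of the 4 plasma groups, with the mean and SD beside the points. The Rsad2 arrays of ApoE-Stab2-KO plasma (5.89 to 6.23) lie below those of ApoE-Stab1-KO plasma (6.29 to 7.0), while the groups of the other 5 genes overlap or meet.

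Cmpk2, a mitochondrial nucleotide kinase, is the neighbour of Rsad2 on chromosome 12. It had 4.99, 5.21 and 5.49 in ApoE-Stab2-KO arrays, 5.04, 5.64 and 6.08 in ApoE-Stab1-KO arrays, 5.03, 5.11, 4.60, 5.30 and 5.57 in ApoE-KO arrays, and 5.16, 5.29 and 5.71 in Wildtype arrays. All groups overlapped, and the highest arrays were ApoE-Stab1-KO replicates 3 and 6, the same arrays that were highest for Rsad2 (7.0 and 6.83). The difference of ApoE-Stab1-KO against ApoE-KO plasma was 0.49 ± 0.16 (adjusted p = 0.82) and that of ApoE-Stab2-KO against ApoE-Stab1-KO plasma -0.38 ± 0.16 (adjusted p = 0.366).

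Ifit1 binds viral RNA that lacks the cap methylation of the host. The Ifit genes are alike in sequence, so probes may share signal between them. Ifit3 had 5.90, 6.17 and 6.28 in ApoE-Stab2-KO arrays, 6.16, 6.42 and 6.68 in ApoE-Stab1-KO arrays, 6.52, 6.26, 6.44, 6.20 and 6.43 in ApoE-KO arrays, and 6.27, 6.51 and 6.84 in Wildtype arrays. The ApoE-Stab2-KO arrays were the lowest as a group but overlapped all other groups, with an overlap of 1 array with Wildtype. ApoE-Stab2-KO against Wildtype plasma differed by -0.37 ± 0.09 (adjusted p = 0.129), and against ApoE-Stab1-KO plasma by -0.30 ± 0.09 (adjusted p = 0.207). Ifit1 had 7.01, 7.08 and 7.57 in ApoE-Stab2-KO arrays, 6.77, 7.50 and 7.91 in ApoE-Stab1-KO arrays, 6.96, 6.91, 6.67, 6.93 and 7.69 in ApoE-KO arrays, and 7.14, 7.26 and 7.53 in Wildtype arrays. The ApoE-Stab1-KO group spanned both the low and the high end, and 1 ApoE-KO array stood above the other ApoE-KO arrays. ApoE-Stab1-KO against ApoE-KO plasma differed by 0.38 ± 0.17 (adjusted p = 0.871). Ifit2 averaged 5.09 in ApoE-KO plasma and 5.44 in Wildtype plasma, a difference of -0.35 ± 0.13 (adjusted p = 0.291).

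Ifi35, an interferon-induced leucine zipper protein, had 8.33, 8.42 and 8.48 in ApoE-Stab2-KO arrays, 8.31, 8.36 and 8.41 in ApoE-Stab1-KO arrays, 8.07, 8.20, 8.14, 8.33 and 8.37 in ApoE-KO arrays, and 8.31, 8.38 and 8.51 in Wildtype arrays. In ApoE-KO plasma 3 arrays were below every other array and 2 were within the other groups. ApoE-Stab2-KO against ApoE-KO plasma differed by 0.19 ± 0.05 (adjusted p = 0.255), and ApoE-KO against Wildtype plasma by -0.18 ± 0.05 (adjusted p = 0.149). Isg20, an exonuclease that degrades RNA, had 5.91, 6.22 and 6.43 in ApoE-Stab2-KO arrays, 6.08, 6.27 and 6.45 in ApoE-Stab1-KO arrays, 6.31, 6.34, 6.53, 6.30 and 6.61 in ApoE-KO arrays, and 5.80, 6.07 and 6.42 in Wildtype arrays. The ApoE-KO arrays were in the upper part of the range and overlapped all other groups. ApoE-KO against Wildtype plasma differed by 0.31 ± 0.10 (adjusted p = 0.208).

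Bst2 (tetherin), which holds budding viruses at the cell surface, had 9.18, 9.28 and 9.33 in ApoE-Stab2-KO arrays, 9.06, 9.15 and 9.29 in ApoE-Stab1-KO arrays, 9.20, 8.98, 8.94, 9.26 and 9.20 in ApoE-KO arrays, and 9.07, 9.15 and 9.25 in Wildtype arrays. The groups overlapped, and ApoE-Stab2-KO against ApoE-KO plasma differed by 0.15 ± 0.06 (adjusted p = 0.466). Oasl1, of the oligoadenylate synthetase family and known as a translational inhibitor of Irf7 in mice, had 4.98, 5.23 and 5.50 in ApoE-Stab2-KO arrays, 4.84, 4.99 and 5.15 in ApoE-Stab1-KO arrays, 5.17, 5.27, 5.01, 5.08 and 5.23 in ApoE-KO arrays, and 4.62, 4.99 and 5.13 in Wildtype arrays. The groups overlapped. ApoE-Stab2-KO against ApoE-Stab1-KO plasma differed by 0.24 ± 0.08 (adjusted p = 0.269), and ApoE-Stab2-KO against Wildtype plasma by 0.29 ± 0.08 (adjusted p = 0.214).

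The GTPase Mx1, which is defective in most inbred laboratory strains, was below the median level of all genes, with means from 3.10 in ApoE-Stab2-KO plasma to 3.26 in ApoE-Stab1-KO plasma. Mx2 averaged 4.38, 4.42, 4.23 and 4.47 in ApoE-Stab2-KO, ApoE-Stab1-KO, ApoE-KO and Wildtype plasma. The oligoadenylate synthetase Oas2 had the largest spread between replicates of the 45 members (residual SD 0.318), with means between 4.92 and 5.01. Oas2, Oas3, Oasl2, Mx2, Rtp4 and Xaf1 had an unadjusted p above 0.05 in all 6 comparisons.

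Among the sensors, Ifih1 (MDA5), which detects long double-stranded RNA, had 6.45, 6.59 and 6.78 in ApoE-Stab2-KO arrays, 6.65, 6.82 and 6.92 in ApoE-Stab1-KO arrays, 6.71, 6.52, 6.84, 6.46 and 6.83 in ApoE-KO arrays, and 6.43, 6.54 and 6.72 in Wildtype arrays. The ApoE-Stab1-KO arrays were in the upper part of the range and overlapped all other groups. ApoE-Stab1-KO against Wildtype plasma differed by 0.25 ± 0.07 (adjusted p = 0.146), and ApoE-Stab2-KO against ApoE-Stab1-KO plasma by -0.22 ± 0.07 (adjusted p = 0.243). The sensor kinase Eif2ak2 (PKR), which halts translation on double-stranded RNA, had 8.21, 8.28 and 8.47 in ApoE-Stab2-KO arrays, 8.34, 8.50 and 8.62 in ApoE-Stab1-KO arrays, 8.40, 8.42, 8.51, 8.36 and 8.43 in ApoE-KO arrays, and 8.26, 8.37 and 8.48 in Wildtype arrays. ApoE-Stab2-KO against ApoE-Stab1-KO plasma differed by -0.18 ± 0.05 (adjusted p = 0.168), with an overlap of the groups. Ddx58 (RIG-I), the sensor of RNA with a free triphosphate end, averaged between 9.96 in ApoE-KO plasma and 10.05 in ApoE-Stab1-KO plasma. Dhx58, a regulator of these sensors, and Zbp1, a sensor of left-handed nucleic acid, had unadjusted p-values above 0.05 in all 6 comparisons, as had Ddx58.

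Among the transcription factors, Irf9, the DNA-binding subunit of the interferon-activated complex, had 7.03, 7.23 and 7.40 in ApoE-Stab2-KO arrays, 7.40, 7.52 and 7.69 in ApoE-Stab1-KO arrays, 7.43, 7.35, 7.32, 7.19 and 7.46 in ApoE-KO arrays, and 7.05, 7.30 and 7.53 in Wildtype arrays. The ApoE-Stab1-KO arrays were the highest as a group and met the ApoE-Stab2-KO arrays only at 7.40. ApoE-Stab2-KO against ApoE-Stab1-KO plasma differed by -0.29 ± 0.07 (adjusted p = 0.124; unadjusted p = 0.000715), and ApoE-Stab1-KO against Wildtype plasma by 0.22 ± 0.07 (adjusted p = 0.232). Irf7, which amplifies interferon production, had 7.05, 7.17 and 7.33 in ApoE-Stab2-KO arrays, 7.20, 7.31 and 7.36 in ApoE-Stab1-KO arrays, 7.02, 7.10, 7.08, 7.08 and 7.39 in ApoE-KO arrays, and 6.94, 7.24 and 7.41 in Wildtype arrays. In ApoE-KO plasma 4 arrays were below every ApoE-Stab1-KO array and the fifth was above them. ApoE-Stab1-KO against ApoE-KO plasma differed by 0.16 ± 0.07 (adjusted p = 0.868).

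Stat2, the partner of Irf9, had 8.29, 8.47 and 8.63 in ApoE-Stab2-KO arrays, 8.37, 8.46 and 8.78 in ApoE-Stab1-KO arrays, 8.59, 8.65, 8.21, 8.59 and 8.66 in ApoE-KO arrays, and 8.41, 8.51 and 8.70 in Wildtype arrays. All groups overlapped, and ApoE-KO against Wildtype plasma differed by 0.01 ± 0.08 (95% interval -0.15 to 0.18). Irf1, the factor that drives many targets of interferon gamma, averaged 6.07, 6.08, 5.97 and 6.03 in ApoE-Stab2-KO, ApoE-Stab1-KO, ApoE-KO and Wildtype plasma, with an F-test adjusted p of 0.808 in limma.

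Isg15 is a ubiquitin-like protein that is joined to other proteins, and Usp18 removes it and also blocks the interferon receptor. Usp18 had 6.77, 6.92 and 6.96 in ApoE-Stab2-KO arrays, 6.90, 7.15 and 7.79 in ApoE-Stab1-KO arrays, 6.88, 6.69, 6.39, 6.69 and 7.22 in ApoE-KO arrays, and 6.59, 6.66 and 7.06 in Wildtype arrays. ApoE-Stab1-KO replicates 3 and 6 were again the highest arrays, and the groups overlapped. ApoE-Stab1-KO plasma differed by 0.48 ± 0.13 from Wildtype plasma (adjusted p = 0.127) and by 0.47 ± 0.14 from ApoE-KO plasma (adjusted p = 0.704), and ApoE-Stab2-KO plasma differed by -0.36 ± 0.13 from ApoE-Stab1-KO plasma (adjusted p = 0.311). The probe set of Isg15 was below the median level of all genes, with 3.65, 3.74 and 3.83 in ApoE-Stab2-KO arrays, 3.57, 3.65 and 3.89 in ApoE-Stab1-KO arrays, 3.58, 3.50, 3.51, 3.56 and 3.92 in ApoE-KO arrays, and 3.39, 3.61 and 4.02 in Wildtype arrays. The groups overlapped, and ApoE-KO against Wildtype plasma differed by -0.01 ± 0.09 (95% interval -0.20 to 0.17). The ligases Trim25, Parp9, Parp14 and Dtx3l had unadjusted p-values above 0.05 in all 6 comparisons.

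The interferon-inducible GTPases attack the membranes of vacuoles that hold pathogens, and the Gbp genes are a family of near copies whose probes may share signal. Irgm1 averaged 7.42, 7.60, 7.51 and 7.43 in ApoE-Stab2-KO, ApoE-Stab1-KO, ApoE-KO and Wildtype plasma. ApoE-Stab2-KO against ApoE-Stab1-KO plasma differed by -0.18 ± 0.08 (adjusted p = 0.37). Gbp2, Gbp3 and Igtp had unadjusted p-values above 0.05 in all 6 comparisons, with residual SDs of 0.261, 0.269 and 0.316. The T-cell chemokine Cxcl10 was below the median level of all genes, with 3.69, 3.77 and 3.85 in ApoE-Stab2-KO arrays, 3.64, 3.87 and 4.21 in ApoE-Stab1-KO arrays, 3.98, 3.83, 3.74, 3.82 and 3.74 in ApoE-KO arrays, and 3.62, 3.77 and 4.06 in Wildtype arrays. The groups overlapped, and ApoE-KO against Wildtype plasma differed by 0.02 ± 0.08 (95% interval -0.15 to 0.19).

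The antiviral genes were next read together in each comparison, where 0 of 36 passed limma's adjusted p of 0.05 and the counts are at an unadjusted p under 0.05. In ApoE-Stab2-KO against ApoE-Stab1-KO plasma 9 of 36 were lower (Rsad2, Irf9, Eif2ak2, Ifit3, Ifih1, Usp18, Cmpk2, Irgm1 and Mx1), against 5.78% of all genes, and 1 was higher (Oasl1), against 5.2% of all genes. The median difference of the 36 was -0.03, with 24 below 0 against 52% of all genes. In ApoE-Stab1-KO against ApoE-KO plasma 7 of 36 were higher (Rsad2, Cmpk2, Ifit1, Ifi35, Usp18, Irf7 and Irf9), against 2.83% of all genes, and 0 were lower, against 2.74% of all genes. Their median difference was 0.08, with 28 above 0 against 50.2% of all genes, and the smallest adjusted p was 0.648. The median was 0.14 without ApoE-KO replicate 5 and 0.05 without ApoE-KO replicate 3.

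In ApoE-Stab2-KO against ApoE-KO plasma 2 were higher (Bst2 and Ifi35) and 2 lower (Eif2ak2 and Ifit3), against 3.94% and 4.42% of all genes, with a median difference of 0.04. In ApoE-Stab1-KO against Wildtype plasma 5 were higher (Usp18, Ifih1, Irf9, Eif2ak2 and Irgm1), against 5.74% of all genes, and 0 lower, against 5.55% of all genes, with a median difference of 0.05. In ApoE-Stab2-KO against Wildtype plasma 1 was higher (Oasl1) and 2 lower (Rsad2 and Ifit3), against 4.27% and 4.22% of all genes, with a median of -0.01. In ApoE-KO against Wildtype plasma 2 were higher (Isg20 and Oasl1) and 3 lower (Rsad2, Ifit2 and Ifi35), against 5.41% and 5.12% of all genes, with a median of -0.02. With 1 array left out the median was between -0.08 and -0.01 in ApoE-Stab2-KO against ApoE-Stab1-KO plasma, between 0.01 and 0.09 in ApoE-Stab2-KO against ApoE-KO plasma and between 0.03 and 0.07 in ApoE-Stab1-KO against Wildtype plasma. It took both signs in ApoE-Stab2-KO against Wildtype plasma (-0.04 to 0.01) and in ApoE-KO against Wildtype plasma (-0.07 to 0.02). The median over all genes was within 0.01 of 0 in each comparison. These comparisons share plasma groups, so their counts are not independent. Members also moved together within single arrays: ApoE-KO replicate 5 was above its group mean for 34 of 36 and replicate 3 for 8 of 36. Counts over members, also those of the highest and lowest group means, are therefore not counts of separate observations.

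**Figure D3:**
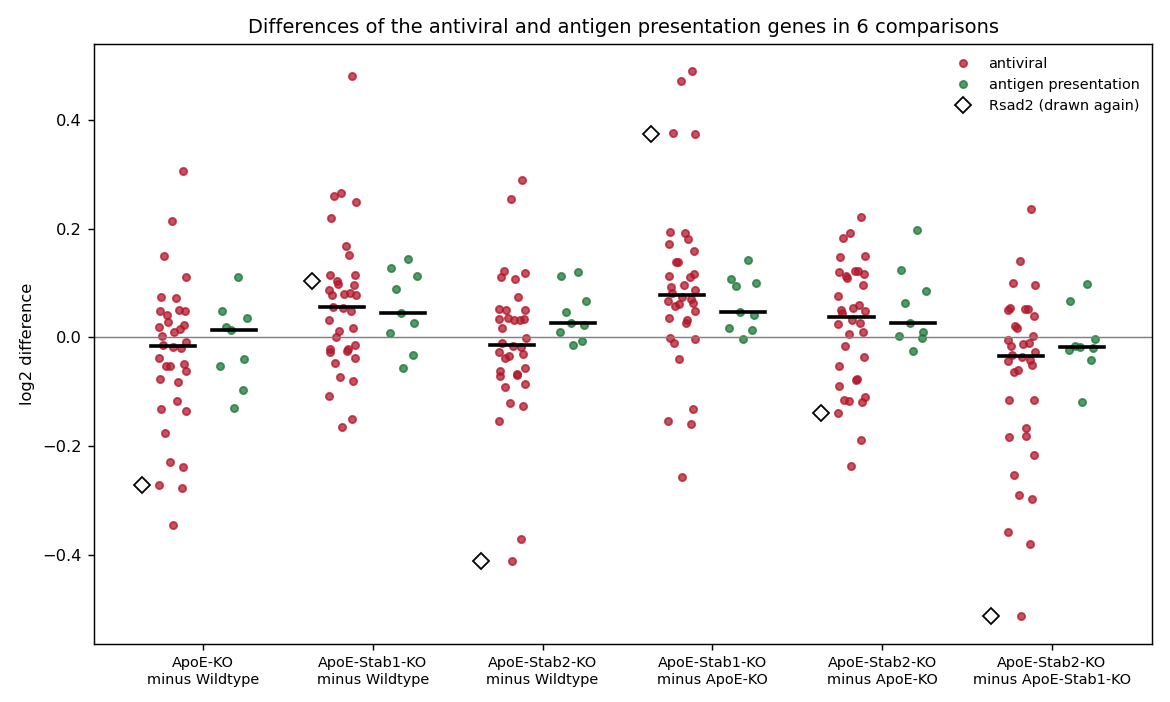
Log2 difference of each of the 36 antiviral and 9 antigen presentation members in the 6 comparisons, with a bar at the median of each set; the diamond repeats the value of Rsad2. The medians lie between -0.03 and 0.08, and Rsad2 is at -0.51 in ApoE-Stab2-KO against ApoE-Stab1-KO plasma.

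The group with the highest mean was ApoE-Stab2-KO plasma for 6 antiviral members, ApoE-Stab1-KO plasma for 18, ApoE-KO plasma for 3 and Wildtype plasma for 9. Over all genes these shares were 23.7%, 25.8%, 25.2% and 25.3% in the same order of groups. The lowest mean was in ApoE-Stab2-KO plasma for 9 members, in ApoE-Stab1-KO plasma for 3, in ApoE-KO plasma for 15 and in Wildtype plasma for 9, against 26.9%, 23.5%, 23.4% and 26.2% of all genes in the same order.

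Of the 9 genes of class I antigen presentation, 0 passed limma's adjusted p of 0.05 in any comparison, where 0.00405% to 0.53% of all genes passed. A count of 0 among 9 is near that share. The group means of a gene spanned a median of 0.12 and at most 0.20 log2 units, against 0.16 and 0.51 for the antiviral members. B2m had 12.04, 12.09 and 12.21 in ApoE-Stab2-KO arrays, 12.06, 12.12 and 12.31 in ApoE-Stab1-KO arrays, 12.17, 12.14, 11.93, 12.11 and 12.16 in ApoE-KO arrays, and 11.90, 12.07 and 12.14 in Wildtype arrays. All groups overlapped, and ApoE-KO against Wildtype plasma differed by 0.05 ± 0.05 (95% interval -0.07 to 0.16). The heavy chain genes H2-D1 and H2-K1 belong to a family of near-identical genes, so their probe sets may share signal with each other and with other class I genes. H2-D1 had 11.25, 11.34 and 11.46 in ApoE-Stab2-KO arrays, 11.14, 11.37 and 11.49 in ApoE-Stab1-KO arrays, 11.20, 11.23, 11.17, 11.20 and 11.31 in ApoE-KO arrays, and 11.25, 11.33 and 11.37 in Wildtype arrays. In ApoE-KO plasma 4 of 5 arrays were below every Wildtype and ApoE-Stab2-KO array. H2-D1 differed by 0.14 ± 0.05 in ApoE-Stab1-KO against ApoE-KO plasma (adjusted p = 0.828) and by 0.12 ± 0.05 in ApoE-Stab2-KO against ApoE-KO plasma (adjusted p = 0.552).

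H2-K1 had 5.55, 5.63 and 5.74 in ApoE-Stab2-KO arrays, 4.96, 5.58 and 6.30 in ApoE-Stab1-KO arrays, 5.68, 5.73, 5.18, 5.79 and 5.86 in ApoE-KO arrays, and 5.31, 5.49 and 5.85 in Wildtype arrays. The ApoE-Stab1-KO arrays held both the lowest and the highest value, and ApoE-KO against Wildtype plasma differed by 0.11 ± 0.16 (95% interval -0.22 to 0.45). Tap1, a subunit of the peptide transporter, had 7.98, 8.11 and 8.25 in ApoE-Stab2-KO arrays, 7.98, 8.10 and 8.33 in ApoE-Stab1-KO arrays, 7.99, 7.93, 7.91, 8.03 and 8.30 in ApoE-KO arrays, and 7.87, 7.99 and 8.13 in Wildtype arrays. The groups overlapped, and ApoE-KO against Wildtype plasma differed by 0.04 ± 0.08 (95% interval -0.12 to 0.19). Its partner Tap2 averaged between 6.73 and 6.76 in the 4 groups, and the peptide-loading chaperone Tapbp (tapasin) between 9.30 and 9.37.

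The immunoproteasome subunits Psmb8 and Psmb9 trim proteins into class I peptides. Psmb9 averaged 4.34 in ApoE-Stab2-KO plasma and 4.14 in ApoE-KO plasma, a difference of 0.20 ± 0.09 (adjusted p = 0.576), with an overlap of the groups. Psmb8 averaged between 6.48 and 6.52. Nlrc5, the transactivator of class I genes, was below the median level of all genes, with 3.46, 3.64 and 3.85 in ApoE-Stab2-KO arrays, 3.70, 3.74 and 3.88 in ApoE-Stab1-KO arrays, 3.63, 3.60, 3.71, 3.69 and 3.68 in ApoE-KO arrays, and 3.48, 3.61 and 3.83 in Wildtype arrays. The groups overlapped, and ApoE-KO against Wildtype plasma differed by 0.02 ± 0.07 (95% interval -0.13 to 0.17). At an unadjusted p under 0.05, 1 of 9 was higher in ApoE-Stab1-KO against ApoE-KO plasma (H2-D1), against 2.83% of all genes, and 2 of 9 were higher in ApoE-Stab2-KO against ApoE-KO plasma (H2-D1 and Psmb9), against 3.94%. In the other 4 comparisons 0 of 9 were counted in either direction, against 4.22% to 5.78% of all genes in a single direction. The median differences of the 9 genes lay between -0.02 and 0.05. With 1 array left out they took both signs in ApoE-KO against Wildtype plasma (-0.03 to 0.04) and in ApoE-Stab2-KO against ApoE-Stab1-KO plasma (-0.04 to 0.01), and were between 0.04 and 0.10 in ApoE-Stab1-KO against ApoE-KO plasma, 0.01 and 0.08 in ApoE-Stab2-KO against ApoE-KO plasma, 0.02 and 0.08 in ApoE-Stab1-KO against Wildtype plasma, and 0.01 and 0.05 in ApoE-Stab2-KO against Wildtype plasma. The highest mean was in ApoE-Stab1-KO plasma for 7 of the 9 genes and in ApoE-Stab2-KO plasma for 2, against 25.8% and 23.7% of all genes. The lowest mean was in ApoE-Stab2-KO plasma for 1 gene, ApoE-Stab1-KO plasma for 1, ApoE-KO plasma for 3 and Wildtype plasma for 4. Over all genes the lowest mean was in these groups for 26.9%, 23.5%, 23.4% and 26.2%, in the same order.

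**Figure D4:**
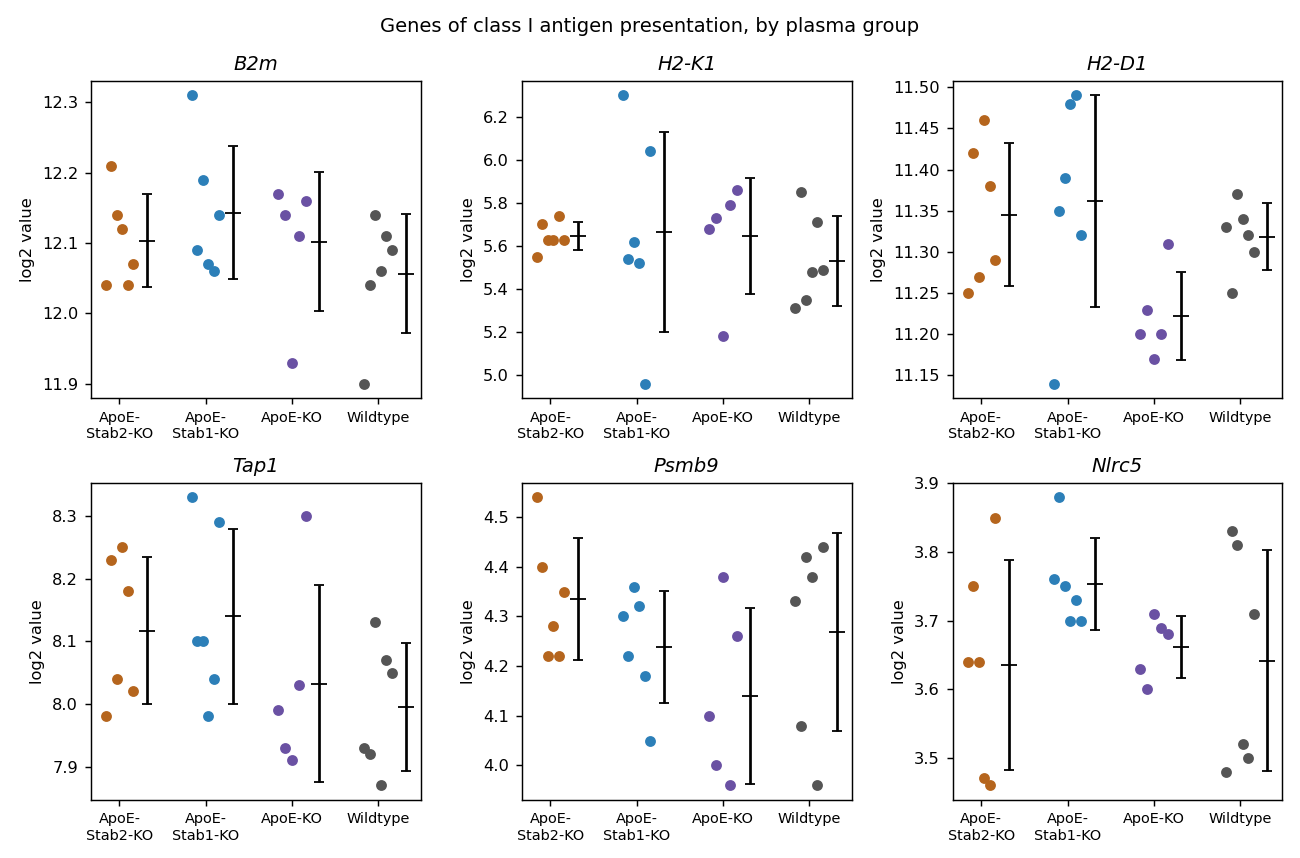
Log2 values of 6 genes of class I antigen presentation, 1 point per array in each of the 4 plasma groups, with the mean and SD beside the points. The groups overlap for all 6 genes, and 4 of the 5 ApoE-KO arrays of H2-D1 lie between 11.17 and 11.23.

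Within each group the arrays spanned a wider range of antiviral levels than the 4 group means did. Single arrays vary more than means of 5 or 6 arrays, so these ranges cannot tell whether the groups differ. The mean deviation of the 36 genes from their own means was -0.02 ± 0.08 in ApoE-Stab2-KO plasma (-0.10 to 0.12), 0.05 ± 0.08 in ApoE-Stab1-KO plasma (-0.05 to 0.17), -0.04 ± 0.13 in ApoE-KO plasma (-0.17 to 0.16) and -0.01 ± 0.06 in Wildtype plasma (-0.06 to 0.08; SD and range over arrays). ApoE-KO replicate 5 was above the mean of its own group for 34 of 36 antiviral and 8 of 9 antigen presentation genes. ApoE-KO replicate 3 was above it for 8 of 36 and 3 of 9. ApoE-Stab2-KO replicate 2 was above its group mean for 29 of 36 antiviral and 8 of 9 antigen presentation genes, and ApoE-Stab1-KO replicate 6 for 29 of 36 and 6 of 9. For the 9 antigen presentation genes the mean deviation was 0.02 ± 0.06, 0.03 ± 0.05, -0.03 ± 0.07 and -0.02 ± 0.06 in ApoE-Stab2-KO, ApoE-Stab1-KO, ApoE-KO and Wildtype plasma.

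Spread between replicates was large for part of the members. Of the 36 antiviral members, 18 were among the 25% of all genes with the largest residual SD and 11 among the 10% with the largest. Of the 9 antigen presentation members, 4 and 1 were. The median residual SD was 0.151 for the antiviral and 0.129 for the antigen presentation members, against 0.126 for all genes above the median level. Igtp, Ifit1, Cmpk2 and H2-K1 followed Oas2 in spread, with residual SDs of 0.316, 0.308, 0.293 and 0.291.

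**Figure D5:**
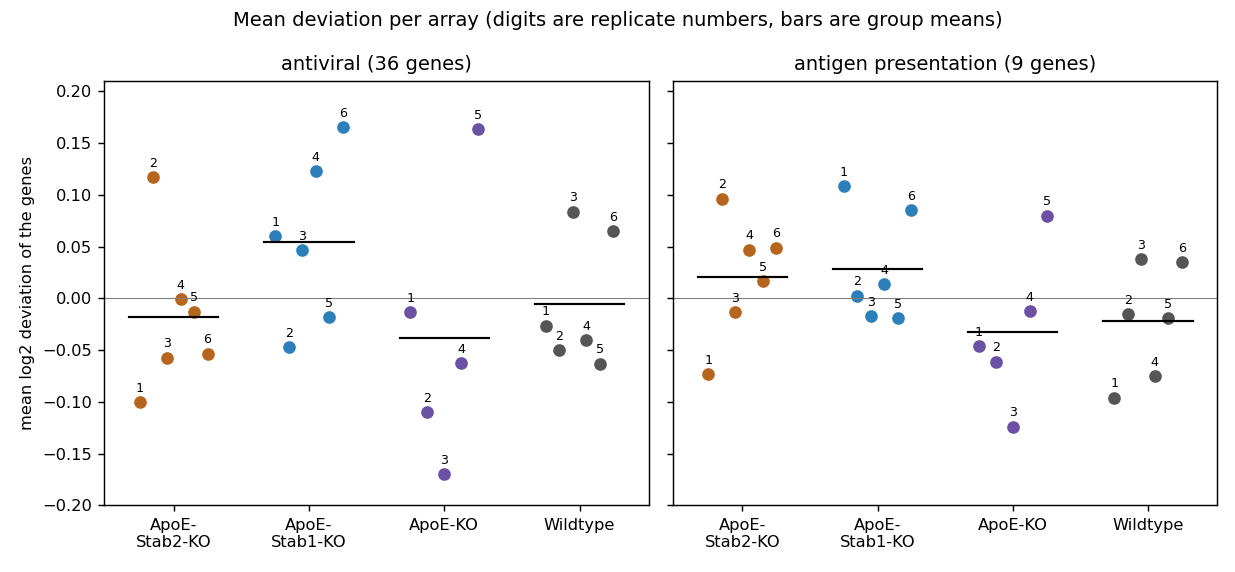
Mean log2 deviation of the antiviral genes (left) and of the antigen presentation genes (right) from their own means, 1 point per array in each of the 4 plasma groups, with the replicate number above each point and a bar at the group mean. The groups overlap in both panels, and ApoE-KO arrays span -0.17 to 0.16 for the antiviral genes.

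The arrays carried the markers of endothelium, with log2 values of 12.46 for Pecam1 and 12.76 for Cdh5, and the leukocyte gene Ptprc was near the floor at 2.98. The macrophage and lysosomal gene Cd68 had 11.17. The mean of 12 immune and blood cell markers was 4.25 to 4.33 in ApoE-Stab2-KO plasma, 4.24 to 4.36 in ApoE-Stab1-KO plasma, 4.27 to 4.34 in ApoE-KO plasma and 4.24 to 4.30 in Wildtype plasma, and 0 of 12 passed the F-test in limma (4 at an unadjusted p under 0.05, led by Cd68, Ppbp and Ptprc, against 11.9% of all genes). The mean of 12 fibroblast and smooth muscle markers was 4.14 to 4.20, 4.18 to 4.21, 4.14 to 4.21 and 4.13 to 4.19 in the same order of groups. Of these, 0 of 12 passed (1 at an unadjusted p under 0.05, Pdgfra, against 11.9% of all genes). The mean of 15 endothelial markers was 10.88 to 10.97 in ApoE-Stab2-KO plasma, 10.78 to 10.94 in ApoE-Stab1-KO plasma, 10.74 to 10.93 in ApoE-KO plasma and 10.91 to 10.96 in Wildtype plasma. Of these, 2 of 15 passed the F-test in limma, against 0.546% of all genes (5 at an unadjusted p under 0.05, against 11.9%). Egfl7 fell in ApoE-KO against Wildtype plasma (-0.27 ± 0.04, adjusted p = 0.00136) and in ApoE-Stab1-KO against Wildtype plasma (-0.21 ± 0.04, adjusted p = 0.0122), and Cldn5 fell in ApoE-KO against Wildtype plasma (-0.27 ± 0.06, adjusted p = 0.0459). Of all genes, 0.53% passed in ApoE-KO against Wildtype plasma and 0.364% in ApoE-Stab1-KO against Wildtype plasma. The Cldn5 call passed in 1 of 11 fits with 1 array left out, that without ApoE-KO replicate 4 (adjusted p 0.0365 to 0.151 over the 11). Vwf, von Willebrand factor, had the third smallest F-test p of the list and averaged 8.53 in ApoE-Stab2-KO plasma, 8.37 in ApoE-Stab1-KO plasma, 8.04 in ApoE-KO plasma and 8.10 in Wildtype plasma. It differed by 0.49 ± 0.13 in ApoE-Stab2-KO against ApoE-KO plasma (adjusted p = 0.255), by 0.43 ± 0.12 in ApoE-Stab2-KO against Wildtype plasma (adjusted p = 0.231) and by 0.27 ± 0.12 in ApoE-Stab1-KO against Wildtype plasma (adjusted p = 0.414). The part of these markers in the interferon values was not tested, and in bulk RNA fewer cells of a type and less RNA per cell cannot be told apart.

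The pathway around the members was read in 7 further lists, where counts at an unadjusted p under 0.05 in the F-test stand against 11.9% of all genes. Of 10 interferon ligand genes, 0 passed the F-test in limma and 0 had an unadjusted p under 0.05, and Ifnb1 and Ifng were at 3.02 and 3.57. Of 14 receptor and JAK-STAT genes, 0 passed and 3 had an unadjusted p under 0.05 (Ifngr2, Tyk2 and Il10rb). The receptor subunit Ifngr2 averaged 9.77 in ApoE-Stab1-KO plasma and 9.94 in Wildtype plasma, a difference of -0.17 ± 0.05 (adjusted p = 0.127). Of 15 genes of innate sensing, 0 passed and 1 had an unadjusted p under 0.05 (Irf8, a transcription factor of myeloid cells, -0.26 ± 0.08 in ApoE-KO against Wildtype plasma, adjusted p = 0.191). At an unadjusted p under 0.05 in limma, Irf8 was lower in each comparison with Wildtype plasma, against 4.22% to 5.55% of all genes.

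Of 48 further interferon-stimulated genes, 0 passed and 10 (20.8%) had an unadjusted p under 0.05, against 11.9% of all genes. They were led by Lgals3bp, a secreted galectin-binding protein (0.35 ± 0.08 in ApoE-Stab1-KO against Wildtype plasma, adjusted p = 0.0508), Ifitm3, which blocks virus entry (0.19 ± 0.05 in ApoE-Stab2-KO against ApoE-Stab1-KO plasma, adjusted p = 0.124) and Slfn2 (0.25 ± 0.07 in ApoE-Stab2-KO against Wildtype plasma, adjusted p = 0.172). At an unadjusted p under 0.05 in limma, Lgals3bp was higher in each comparison with Wildtype plasma, against 4.27% to 5.74% of all genes. Of 15 GTPase and chemokine genes of the interferon gamma response, 0 passed and 4 had an unadjusted p under 0.05, led by Ido1, Upp1 and Gbp7. The enzyme Ido1, which degrades tryptophan, differed by -0.22 ± 0.06 in ApoE-Stab2-KO against ApoE-Stab1-KO plasma (adjusted p = 0.168).

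Of 26 further genes of the class I pathway, 1 changed in the F-test, against 0.546% of all genes: Mr1, which presents vitamin metabolites to innate-like T cells. Mr1 averaged 8.92 ± 0.05 in ApoE-Stab2-KO plasma, 9.17 ± 0.12 in ApoE-Stab1-KO plasma, 9.05 ± 0.04 in ApoE-KO plasma and 8.84 ± 0.10 in Wildtype plasma (SD; n = 6, 6, 5 and 6). It rose by 0.33 ± 0.05 in ApoE-Stab1-KO against Wildtype plasma (limma adjusted p = 0.00367), where 0.364% of all genes passed, and its F-test adjusted p was 0.00816. The rise passed in 12 of 12 fits with 1 array left out (0.29 to 0.37) and did not with only the 2 groups compared (adjusted p = 0.0855). In the same list 4 genes had an unadjusted p under 0.05 in the F-test, and the next by p were the proteasome activator Psme2 (-0.40 ± 0.10 in ApoE-Stab2-KO against ApoE-Stab1-KO plasma, adjusted p = 0.123) and the peptide-trimming Erap1 (0.23 ± 0.07 in ApoE-Stab1-KO against Wildtype plasma, adjusted p = 0.206). Of 14 class II genes, 0 passed in limma and 2 had an unadjusted p under 0.05 (H2-Eb1 and Rfxank).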

How the data were processed

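Total RNA of 23 samples was hybridised to Affymetrix arrays. The deposited table holds log2 values per probe set, made by the authors with RMA per the submitters' processing notes. Of 25428 probe sets, 24705 had 1 gene symbol, 0 several and 723 none. The annotation release behind the probe sets is not stated in the labels. Values run from 2.52 to 13.9. In ApoE-KO replicate 1, 4.21% of the values lie on the binary decimal grid on which 100% of the other arrays' values lie. Arrays correlated at 0.992 to 0.997, and 0 pairs were identical.

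Plasma groups were compared with limma 3.58.1 (R 4.3.3) in 1 fit over the 4 groups, with a moderated F-test and 6 pairwise differences, adjusted by Benjamini-Hochberg over 24704 genes. The fit was run on simulated data in which genes vary independently, so that run does not give its power for these members. No filter on dim probe sets was used. Residual SD is that of this fit. Alternatives were another normalization or scaling, a filter, trend and robust fits, array weights, the replicate block, single probe sets, only the groups compared, and each array left out.

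Array values are given for members called, the 12 with the smallest F-test p, and Ifit1, Irf7, Isg15, Stat2, Cxcl10, B2m, H2-K1, H2-D1, Tap1 and Nlrc5. Of each further list, called genes and up to 3 with the smallest F-test p are named. A match of a probe set to a symbol is that of the platform annotation, and the 10 lists had 181 of 199 genes measured. The members and lists were chosen with earlier results of these data known.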

Additional observations from a re-analysis of the deposited data

Results flagged for a closer look

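Within plasma groups, 1 array stood apart from the others by Dixon's criterion in 11 of 188 sets of values (a gene or a mean over genes, in 1 group), where chance gives about 5%. In ApoE-KO plasma, replicate 3 was lowest for Stat2 at 8.21 (next 8.59), for Oas3 at 4.51 (next 4.68), for B2m at 11.93 (next 12.11) and for H2-K1 at 5.18 (next 5.68). In the same group replicate 5 was highest for Irf7 at 7.39 (next 7.10) and for Isg15 at 3.92 (next 3.58), and replicate 2 was lowest for Rsad2 at 5.92 (next 6.23). In ApoE-Stab2-KO plasma replicate 2 was highest for Ifit1 at 7.57 (next 7.13). In ApoE-Stab1-KO plasma replicate 1 was highest for Stat2 at 8.78 (next 8.51) and replicate 2 for Nlrc5 at 3.88 (next 3.76). In Wildtype plasma replicate 6 was highest for Mx2 at 4.80 (next 4.46). Without ApoE-KO replicate 2 the difference of Rsad2 in ApoE-KO against Wildtype plasma was -0.20 (adjusted p = 0.624 in limma).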

How the results depend on the processing

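Of the 270 member differences, the 37 with an unadjusted p under 0.05 kept their direction under every alternative run on that comparison, while 98 of the other 233 changed sign under at least 1. The filter, trend and robust fits, single probe sets and only the groups compared leave a member's difference itself unchanged, so they cannot test its direction. The 37 were also picked by p in these same data, so their kept direction is no separate support. The 12 median differences moved by less than the SD between arrays (0.087 for the antiviral and 0.060 for the antigen presentation genes). Each median was itself smaller than that SD, so a median could change sign and still count as unmoved. The number of members passing limma's adjusted p changed for Rsad2 alone. With the replicate block, 1 antiviral member passed in ApoE-Stab2-KO against Wildtype plasma (Rsad2, -0.41, adjusted p = 0.0171) and 1 in ApoE-Stab2-KO against ApoE-Stab1-KO plasma (Rsad2, -0.51, adjusted p = 0.00472), against 0 without the block. The block changed no other call of a member. Of the calls in the further lists, Cldn5 in ApoE-KO against Wildtype plasma was lost with it (adjusted p = 0.0606), and Mr1 (0.00881) and Egfl7 (0.00875 and 0.0366) were not. Over all genes, same-numbered arrays deviated together with correlations from -0.10 to 0.11 (33 pairs, 1 over 0.1), and other pairs from -0.21 to 0.24. Such correlations show no pairing over all genes and cannot decide it for a single gene. For Rsad2, replicates 3 and 6 were highest in ApoE-Stab2-KO (6.23 and 6.17), ApoE-Stab1-KO (7.0 and 6.83) and Wildtype plasma (6.54 and 6.64). In ApoE-KO plasma, which has no replicate 6, replicates 1 and 3 were highest (6.34 and 6.27). A pairing for Rsad2 was not tested. With only the 2 groups compared, Mr1 (0.0855) and Egfl7 (0.0712) in ApoE-Stab1-KO against Wildtype plasma were lost, and 1 member passed in ApoE-Stab2-KO against Wildtype plasma (Rsad2, adjusted p = 0.0169). In ApoE-Stab2-KO against ApoE-Stab1-KO plasma 1 passed with genes above the median level only (Rsad2, adjusted p = 0.0386) and with trend and robust fitting (0.0381), and 0 to 1 passed with 1 array left out (Rsad2, -0.57 to -0.43, adjusted p 0.0243 to 0.149). The F-test count was 0 to 1 with 1 array left out, with Rsad2 passing in 18 of 23 such fits, and the cause of these changes was not tested. Over all genes, counts passing ranged under the 8 other alternatives, and then with 1 array left out, from 80 to 212 and 55 to 109 for ApoE-KO against Wildtype plasma (131 as reported), 21 to 151 and 54 to 124 for ApoE-Stab1-KO against Wildtype plasma (90), 34 to 63 and 20 to 41 for ApoE-Stab2-KO against Wildtype plasma (44), 0 to 2 and 0 to 2 for ApoE-Stab1-KO against ApoE-KO plasma (1), 0 to 18 and 0 to 12 for ApoE-Stab2-KO against ApoE-KO plasma (6), and 4 to 21 and 8 to 37 for ApoE-Stab2-KO against ApoE-Stab1-KO plasma (12). The precision is limited by 5 or 6 arrays a group (median SE 0.07), and 6 members lay below the median level of all genes.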
